A study of Caenorhabditis elegans with 2 samples.

Results

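EOR-1 is the C. elegans member of the family of BTB zinc finger transcription factors that includes mammalian PLZF. It acts downstream of Ras and Wnt signalling in larval development. Its binding was mapped by chromatin immunoprecipitation and sequencing (ChIP-seq) in whole L3 larvae of mixed sex from the strain OP81, whose genotype is unc-119(ed3) III; wgIs81 and which carries GFP-tagged eor-1 on the wgIs81 insertion. There was 1 group, with 2 biological replicates and no untagged, mutant or other-stage group among the samples analysed here. The animals were whole, so a peak present in a few cells and a weaker one present in many cannot be told apart.

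The peaks described here lie on the autosomes at promoters classed, by a distance rule, as serving a gene on 1 side only. A gene with such a promoter may still have an upstream neighbour on the opposite strand. A pooled peak was taken when its summit, the position of highest signal, lay within 500 bp of the start of a protein-coding transcript (Ensembl release 115, genome WBcel235, which is ce11). It was left out on chromosome X, and where starts of different genes ran away from each other (a head-to-head pair) with both within 1000 bp of the summit. This gave 1590 of the 6708 peaks of the pooled list. They were assigned by nearest start to 1404 of 17242 autosomal protein-coding genes, or 8.14% of them. A further 548 autosomal peaks lay at head-to-head promoters, 3185 autosomal peaks lay away from promoters and 409 peaks lay at one-sided promoters on X.

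A one-sided promoter has a direction: the gene is read from its start to 1 side, and regulatory DNA usually lies to the other side, between the gene and its upstream neighbour. Transcription factors are often recruited there by short DNA sequences. The messenger RNAs of many worm genes are trans-spliced, which removes the first stretch of the transcript, so an annotated start may lie downstream of the point where transcription begins. The questions asked of these peaks were whether the strong ones differed from the weak ones in position, sequence and genes, and whether they differed from strong peaks elsewhere.

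Peaks were ranked in the pooled list by the signal value that the authors' peak calling gave them. The 252 peaks ranked 1 to 1000 are called strong and the 1338 ranked above 1000 weak. The signal value ran from 5.91 to 113.8 in strong peaks (median 8.14) and from 2.05 to 5.89 in weak peaks (median 2.93). The strong peaks were assigned to 241 genes, or 1.4% of autosomal protein-coding genes. The deposited list holds background entries by its own description, so strong and weak peaks alike are candidates. Of the 252 strong peaks, 8 were in the authors' thresholded list. By this definition 15.8% of the one-sided promoter peaks were strong, against 14.9% of all pooled peaks. The distance limit fell within a continuous range. Of the 20 peaks with summits at 491 to 500 bp from a start, the strongest was at C47E8.11 (signal 11.4, rank 208) and the weakest at Y56A3A.33 (signal 2.07, rank 6609). Of the 16 peaks just outside, at 501 to 510 bp, the strongest was nearest K12H4.5 (signal 20.01, rank 29) and the weakest nearest mrps-31 (signal 2.06, rank 6693).

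A 10-base sequence, AGAGACGCAG, was picked by its frequency in strong peaks outside this class and then counted in the one-sided promoter peaks. It is read as CTGCGTCTCT on the other strand. It is shown first in the promoters that carry it without mismatch. These are the 5 strongest such peaks with the sequence upstream of the start, among those on chromosomes II to V in windows that touch no annotated UTR or coding sequence. Each line gives 80 bases of ce11 on the strand of the gene, 5′ to 3′, with the match in capitals.

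sec-61.G (gamma subunit of the Sec61 protein translocon), chrV:10897317-10897396, minus strand: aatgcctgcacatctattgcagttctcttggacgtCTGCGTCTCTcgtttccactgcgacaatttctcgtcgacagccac
C09E9.1, chrIV:1274768-1274847, plus strand: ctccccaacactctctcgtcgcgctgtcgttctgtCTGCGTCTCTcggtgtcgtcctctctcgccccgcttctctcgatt
hmg-1.2 (a high mobility group box protein), chrIII:6280278-6280357, plus strand: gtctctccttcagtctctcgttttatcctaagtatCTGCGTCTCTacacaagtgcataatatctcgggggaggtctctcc
ZK1290.5, chrII:7529240-7529319, plus strand: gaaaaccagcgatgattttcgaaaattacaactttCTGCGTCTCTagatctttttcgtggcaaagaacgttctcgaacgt
dpy-30 (a subunit of the COMPASS histone methyltransferase complex), chrV:12191122-12191201, plus strand: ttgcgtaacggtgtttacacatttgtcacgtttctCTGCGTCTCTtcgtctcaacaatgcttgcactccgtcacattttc

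All 5 of these promoters held the sequence in the CTGCGTCTCT direction when read on the strand of the gene. The middle of the match lay 213.5 bp upstream of the start at sec-61.G, 60.5 bp upstream at C09E9.1 and 62.5 bp upstream at hmg-1.2. The run TCTCTC, which reads as a GA repeat on the other strand, lies apart from the match at C09E9.1 and hmg-1.2. At sec-61.G, and again at C09E9.1, such a run overlaps the end of the match.

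Matches with 1 mismatch were counted too. The promoters of dld-1 (dihydrolipoamide dehydrogenase, a shared subunit of mitochondrial dehydrogenase complexes), Y43F8B.2 and allo-1 (a receptor in the autophagic removal of paternal organelles) are shown. They were the 3 strongest with such a match upstream of the nearest start, chosen from the same chromosomes and windows. For Y43F8B.2 that start was an internal one, 10249 bp from the outermost start of the gene.

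dld-1, chrIV:14464276-14464355, plus strand: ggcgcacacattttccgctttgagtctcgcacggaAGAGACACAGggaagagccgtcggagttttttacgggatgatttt
Y43F8B.2, chrV:19522873-19522952, minus strand: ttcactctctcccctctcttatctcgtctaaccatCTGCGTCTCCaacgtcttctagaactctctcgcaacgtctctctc
allo-1, chrIV:10697298-10697377, minus strand: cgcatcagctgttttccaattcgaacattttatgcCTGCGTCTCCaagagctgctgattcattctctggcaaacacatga

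Most of the very strongest peaks did not carry the sequence. Of the 8 in the authors' thresholded list, the peak at Y39E4B.6 held it, with 1 mismatch, and the other 7 did not. The 81 bases centred on the summit are shown for the 4 strongest peaks without a match, chosen from the same chromosomes and windows. Capitals mark 17 bases that the tos-1 and hsp-1 windows have in common.

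tos-1 (a gene named as a target of splicing), chrV:9344258-9344338, minus strand: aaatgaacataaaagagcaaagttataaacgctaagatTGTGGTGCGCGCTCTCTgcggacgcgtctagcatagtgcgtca
his-37 (a histone gene), chrV:9546988-9547068, plus strand: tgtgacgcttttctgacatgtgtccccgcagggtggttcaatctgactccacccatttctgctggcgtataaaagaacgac
hsp-1 (the constitutive Hsp70 chaperone), chrIV:17278541-17278621, plus strand: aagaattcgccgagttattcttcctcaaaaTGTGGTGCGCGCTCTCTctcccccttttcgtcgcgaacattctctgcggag
gei-4 (a GEX interacting protein), chrIII:355084-355164, minus strand: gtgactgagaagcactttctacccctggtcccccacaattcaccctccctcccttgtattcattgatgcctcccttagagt

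The 17 bases were the longest run shared by the tos-1 and hsp-1 windows of 201 bases, and were noticed after the sequences had been read. They occurred in 2 of the 252 strong windows, these 2, and in 0 of the 1338 weak windows. The 8 bases GTGCGCGC within them were found in 6 strong windows (2.38%), at tos-1, Y39E4B.6, hsp-1, mrck-1, T07F10.3 and dot-1.1, and in 8 weak windows (0.598%). They were in 80 of 17242 autosomal promoters (0.464%), whose windows were not centred on summits. No test was made of these counts.

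The 15 strongest one-sided promoter peaks belonged to genes of varied function. The strongest, at tos-1, had its summit 95 bp upstream of the start, with a signal value of 113.8 and rank 1 of 6708. Its signal was 32.2 (rank 2) in the list of replicate 1 and 56.5 (rank 1) in that of replicate 2. A second tos-1 peak lay 308 bp upstream (signal 15.1, rank 93), and its nearest summit in replicate 1 was the same one.

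The peak at Y39E4B.6 was second in the pooled list (signal 53.8, 81 bp upstream), with rank 10 in replicate 1 and rank 2 in replicate 2. These 2 genes ranked high in both replicates. The peak at his-37, 77 bp upstream, had rank 5 in the pooled list with rank 95 in replicate 1 and rank 3 in replicate 2. At hsp-1 the summit was 378 bp upstream, with pooled rank 8 and ranks 9 and 60 in replicates 1 and 2. At gei-4 it was 324 bp upstream, with pooled rank 14 and ranks 3 and 118. By rank, his-37 was thus higher in the list of replicate 2, and hsp-1 and gei-4 in that of replicate 1.

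The peak at ints-4, a subunit of the Integrator complex that processes small nuclear RNAs, lay 40 bp downstream of the start (pooled rank 22, ranks 34 and 27 in replicates 1 and 2). That of rpl-3, a large subunit ribosomal protein gene, lay 243 bp upstream (pooled rank 27, ranks 92 and 26). That of egg-5, a pseudophosphatase of the change from oocyte to embryo, lay 481 bp upstream (pooled rank 32, ranks 189 and 15). These 8 genes, from tos-1 to egg-5, are also those with a peak in the authors' thresholded list, 1 peak each. They make up 0.503% of the one-sided promoter peaks, against 0.492% of all pooled peaks.

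The next of the 15 varied more widely between replicates. The peak of sec-61.G had rank 979 in replicate 1 and rank 24 in replicate 2. The peak of tent-5, a terminal nucleotidyltransferase, had rank 19 in replicate 1 and rank 1136 in replicate 2. For dld-1 the ranks were 66 and 63 in replicates 1 and 2, close to each other. The MAP kinase phosphatase gene vhp-1 had ranks 163 and 67, Y43F8B.2 had 355 and 46, T28F4.5 had 49 and 900 and F47D12.9 had 1240 and 406. At tent-5, vhp-1, Y43F8B.2 and T28F4.5 the nearest start was an internal one. It lay 4476, 12821, 10249 and 520 bp from the outermost start of the gene. All 15 had a summit within 200 bp in both lists, but the order differed between them.

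**Figure D1:**
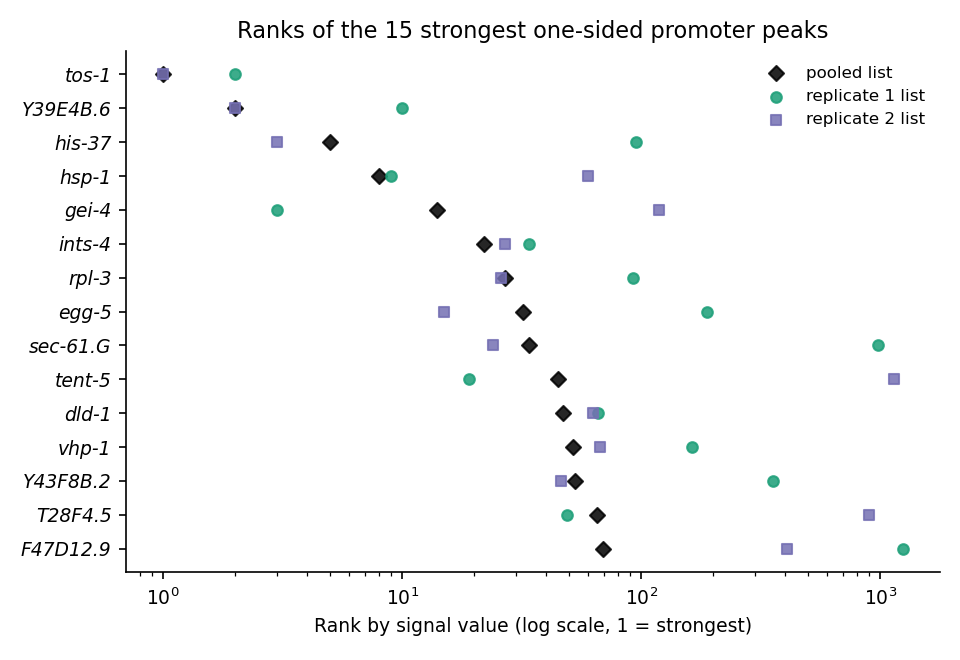
Rank by signal value (horizontal log axis, 1 is the strongest) of the 15 strongest one-sided promoter peaks in the pooled list (diamonds) and of the nearest summit within 200 bp in the lists of replicate 1 (circles) and replicate 2 (squares). The tos-1 and Y39E4B.6 peaks had ranks of 10 or better in all 3 lists, while sec-61.G (ranks 979 and 24) and tent-5 (ranks 19 and 1136) lay far apart.

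A summit in both replicate lists within 200 bp was found for 105 of the 252 strong peaks (41.7%, exact 95% interval 35.5 to 48.0%). Over the 1000 strong peaks of all classes the share was 42.8%. Another 81 strong one-sided promoter peaks had a summit in the list of replicate 1 only, 54 in that of replicate 2 only and 12 in neither. Among the weak peaks, 27 of 1338 (2.02%) were in both lists and 751 in neither. All 23 one-sided promoter peaks ranked 1 to 100 were in both lists. The share was 53.8% at ranks 101 to 500 and 20.8% at ranks 501 to 1000. In the 105 shared strong peaks the median rank was 448 in replicate 1 and 488 in replicate 2, and both ranks were within 1 to 100 in 7 of them. The pooled signal was made from the same reads as the replicate lists, so these shares are no independent check of the ranking.

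The 12 strong peaks in neither list had pooled ranks between 419 and 997. The strongest was at mog-4, a splicing helicase of the germline sperm-to-oocyte switch (signal 8.64, rank 419). Others of them, picked out here after their values were seen, lay at ubc-7, a ubiquitin-conjugating enzyme (rank 609), dlk-1, a MAP kinase kinase kinase of axon regeneration (rank 683), and met-1, a histone methyltransferase (rank 879). Members of the listed gene families among them were rpl-24.2 (rank 908), nhr-256 (rank 995) and dpy-11 (rank 528).

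Strong peaks lay further upstream than weak ones. The summit was upstream of the nearest start in 203 of 252 strong peaks (80.6%, 95% interval 75.1 to 85.2%), against 825 of 1338 weak peaks (61.7%, 59.0 to 64.3%). By Fisher's exact test, two-sided as all tests here are, this was an odds ratio of 2.58 with p = 2.86e-09. The median summit lay at −155 bp in strong peaks and at −78.5 bp in weak peaks. Strong peaks were spread over the upstream side, with 54 of them (21.4%) at −100 to −1 bp, 46 (18.3%) at −200 to −101 bp and 45 (17.9%) at −300 to −201 bp. At 100 to 199 bp downstream there were 5 strong peaks (1.98%) and 111 weak peaks (8.30%). The odds ratio was 3.93 in peaks of low GC content. It was smaller in each replicate's own list (1.78 in replicate 1 and 1.46 in replicate 2), where peaks were ranked by that list alone. Those lists hold 2488 and 2610 peaks, against 6708 in the pooled list, so their weak peaks cover fewer low ranks. The p-values here and below treat peaks as units of this pooled list and do not measure variation between cultures.

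The share upstream differed by rank class from the top of the list to the bottom. It was 82.6% of 23 peaks at ranks 1 to 100, 84.6% at ranks 101 to 500, 76.8% at ranks 501 to 1000, 73.8% at ranks 1001 to 2000, 64.0% at ranks 2001 to 4000 and 54.6% at ranks above 4000. It was thus highest in the 2 strongest classes and lowest in the weakest. The same fall was seen in other promoter classes. At head-to-head promoters the share was 89.7% at ranks 101 to 500 and 67.4% above rank 4000. At one-sided promoters on X it was 91.4% and 55.9%.

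**Figure D2:**
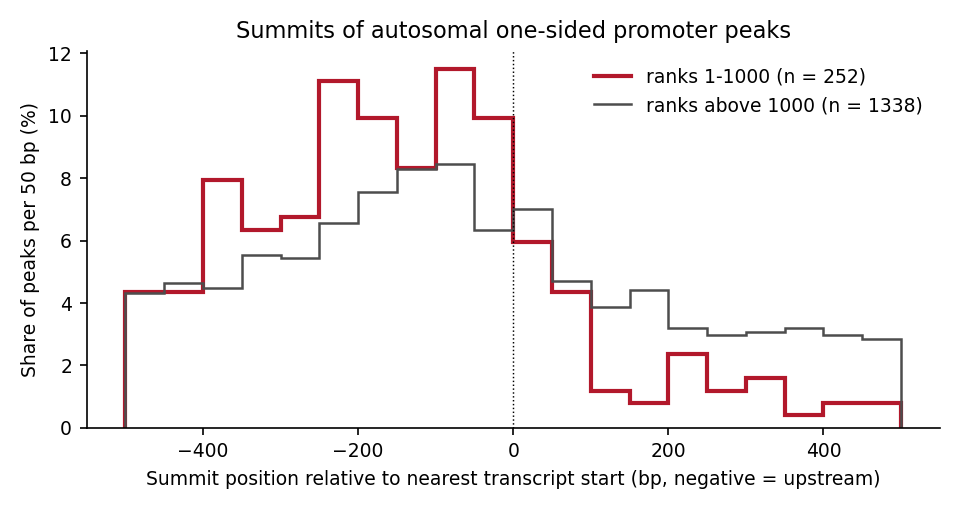
Share of peaks per 50 bp (vertical axis, %) against the position of the summit relative to the nearest protein-coding transcript start (horizontal axis, bp, negative upstream), for the 252 strong peaks (thick red line) and the 1338 weak peaks (thin grey line). The strong peaks are concentrated upstream of the start, and the weak peaks extend further into the gene.

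The annotation at the summit differed in the same way. The summit lay between genes in 153 strong peaks (60.7%), against 573 weak peaks (42.8%, odds ratio 2.06, Fisher's exact test, adjusted over 8 added tests, p = 8.06e-07). It lay in a coding exon in 13 strong peaks (5.16%), against 265 weak peaks (19.8%, odds ratio 0.220, exact adjusted p = 5.41e-09). Introns held 55 strong summits (21.8%) and 344 weak summits (25.7%), which did not pass the test (exact adjusted p = 0.235). The nearest start was the outermost one annotated for its gene in 80.6% of strong peaks and 71.2% of weak peaks (odds ratio 1.68, exact adjusted p = 0.00403). All 8 of these tests, 3 of which are given further on for the 10-base sequence, were chosen after the data had been seen.

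A gene at a one-sided promoter can have an upstream neighbour on the same strand (a tandem arrangement, which also holds the downstream genes of operons), on the opposite strand, or overlapping it. The neighbour was on the same strand in 130 strong peaks (51.6%), with a median gap of 587.5 bp, and in 787 weak peaks (58.8%), with a median gap of 739 bp. This difference did not pass the adjusted test (odds ratio 0.746, exact adjusted p = 0.0592). The neighbour was on the opposite strand in 103 strong peaks (median gap 2383 bp) and 468 weak peaks (median gap 2961 bp), and it overlapped the gene in 19 strong peaks (7.54%) and 83 weak peaks (6.20%).

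A match to the 10-base sequence, allowing 1 mismatch and read on both strands, lay within 100 bp of the summit in 60 of 252 strong peaks (23.8%, 95% interval 18.7 to 29.6%), against 116 of 1338 weak peaks (8.67%, 7.22 to 10.3%). The odds of a match were 3.29 times as high in strong peaks by Fisher's exact test (p = 2.18e-10). The sequence was the 10-base word that differed most between the 500 strongest pooled peaks outside this class and the weak ones outside it, so the one-sided promoter peaks had no part in its choice. Windows of the same length, placed over all 17242 autosomal promoters, held it in 702 cases (4.07%). These windows were not centred on summits, and only 1 of them held the 17 bases found at both tos-1 and hsp-1. This share and the others over all promoters below are thus from positions unlike those of the peaks. Without mismatch it was in 21 strong and 42 weak peaks and in 271 of all promoters (1.57%). It occurred at least 2 times in 8 strong and 6 weak peaks. In each replicate's own list the odds ratio was smaller, at 2.21 in replicate 1 and 2.18 in replicate 2. Those lists are shorter, with 347 and 348 weak peaks, so their weak sets are unlike that of the pooled list.

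Among the 39 strong peaks whose best match had a single mismatch, the mismatch was at position 1, counted from the first A of AGAGACGCAG, in 16. Position 8 followed with 6. The other 8 positions had 1 to 3 each.

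The share of peaks with a match went down the ranking. It was 26.1% of 23 peaks at ranks 1 to 100 (95% interval 10.2 to 48.4%) and 31.7% of 104 at ranks 101 to 500. It was then 16.8% at ranks 501 to 1000, 12.3% at ranks 1001 to 2000, 9.57% at ranks 2001 to 4000 and 6.39% above. The 2 top classes did not separate beyond their intervals.

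**Figure D3:**
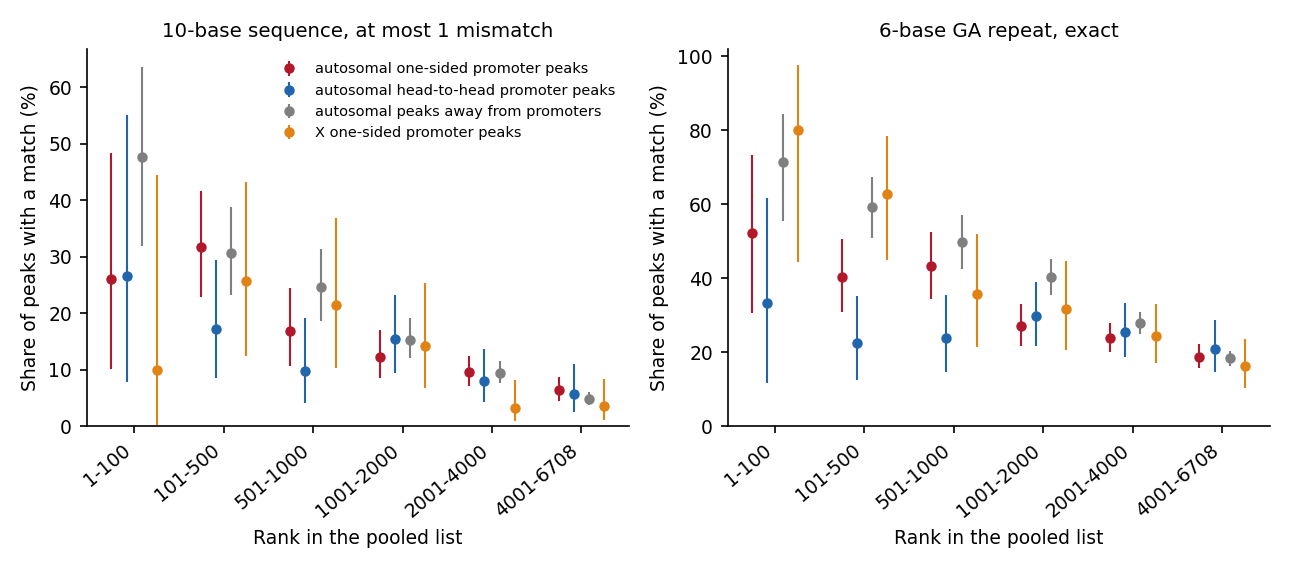
Share of peaks (vertical axes, %) that held the 10-base sequence with at most 1 mismatch (left) or the GA repeat of 6 bases (right) within 100 bp of the summit, by rank class in the pooled list, for one-sided promoter peaks (red) and the 3 other classes. Bars are exact 95% intervals. In one-sided promoter peaks the match share was 26.1% at ranks 1 to 100 and 6.39% above rank 4000, and the GA repeat share 52.2% and 18.8%.

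The repeat GAGAGA, read as TCTCTC on the other strand, was also more frequent in strong peaks. It was present in 108 strong peaks (42.9%), against 297 weak peaks (22.2%). Adjusted over 4 words by Fisher's exact test, p was 2.12e-10 at an odds ratio of 2.63, and 16.2% of all autosomal promoters held it. TGATAA, which holds a GATA word, was less frequent, with 22 strong peaks (8.73%) against 238 weak peaks (17.8%, odds ratio 0.442, exact adjusted p = 3.85e-04), and was in 23% of all promoters. The TATA box word TATAAA was in 15.5% of strong and 17.7% of weak peaks (exact adjusted p = 0.554), and in 30.7% of all promoters. CACGTG, an E-box, was in 5.95% of strong and 6.13% of weak peaks (exact adjusted p = 1), and in 4.35% of all promoters. A match says only that these letters are present in the window.

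Strong peaks also had more G and C, with a median of 43.5% in their windows against 38.8% in weak peaks. In peaks at or above the median GC of all 1590, the GA repeat was in 93 of 182 strong peaks (51.1%) and 186 of 616 weak peaks (30.2%, odds ratio 2.42, exact adjusted p = 1.51e-06). Below that median it was in 15 of 70 strong peaks (21.4%) and 111 of 722 weak peaks (15.4%), and this did not pass the test (odds ratio 1.50, exact adjusted p = 0.484). The 10-base sequence passed Fisher's exact test at or above the median GC (odds ratio 2.68, unadjusted p = 2.35e-06). Below the median it was in 8 of 70 strong and 36 of 722 weak peaks. That odds ratio was 2.46, with an unadjusted exact p of 0.0479, close to the threshold of 0.05. TGATAA was in 10 of 182 strong (5.5%) and 78 of 616 weak peaks (12.7%) at or above the median GC. Below it, TGATAA was in 12 of 70 strong (17.1%) and 160 of 722 weak peaks (22.2%). No test was made of TGATAA within these groups. The splits by GC were chosen after the data had been seen. In the shorter list of replicate 2 alone, the GA repeat did not pass either (odds ratio 1.38, exact adjusted p = 0.353).

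Of all 2080 words of 6 bases, counted with their reverse complements, 95 were more frequent in strong peaks and 41 less frequent (Fisher's exact test, Benjamini-Hochberg adjusted). These were 4.57% and 1.97% of the words tested. The lowest p belonged to GAGAGA, and the next to GCGCAC (47 strong peaks, 18.7%, against 75 weak peaks, 5.61%, odds ratio 3.86, exact adjusted p = 1.87e-07). GCGCAC was in 4.03% of all promoters, and lies in the bases that tos-1 and hsp-1 share. The next 3 words, among them AGAGAC, were all parts of the 10-base sequence. Of the 95, 59 held a CG step and 64 had at least 4 bases of C or G. Of the 41, 38 had at most 2 bases of C or G, such as TCAAAA, which was in 25.8% of strong and 41.3% of weak peaks (odds ratio 0.495, exact adjusted p = 3.43e-04). How many of all 2080 words have these compositions was not counted, so no enrichment is read from the 59, 64 and 38.

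The 10-base sequence and the GA repeat occurred together. Of the 60 strong peaks with a match, 41 (68.3%) also held GAGAGA, against 67 of the 192 without a match (34.9%, odds ratio 4.03, exact adjusted p = 1.63e-05). The words overlap by sequence, since the match begins with AGAGA. In 4 of the 41 every GAGAGA overlapped a match, and in the other 37 at least 1 lay apart from it. Sequence and repeat were each more frequent in strong peaks at or above the median GC (28.6% and 51.1%) than below it (11.4% and 21.4%). The part of GC in their joint occurrence was not tested. Neither the sequence nor the repeat was present in 125 strong peaks (49.6%) and 993 weak peaks (74.2%). The peaks at his-37, rpl-3 and egg-5, in the thresholded list, were among the strong peaks with neither.

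Strong peaks with a match did not differ detectably from the others in 2 further respects. Of those with a match 51.7% were in both replicate lists, against 38.5% of those without (odds ratio 1.71, exact adjusted p = 0.131). The summit was upstream in 81.7% of those with a match and in 80.2% of those without (odds ratio 1.10, exact adjusted p = 0.854).

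The match itself lay mostly upstream of the gene, in 52 of 60 strong peaks (86.7%) and 100 of 116 weak peaks (86.2%). Its middle was at a median of −127 bp from the start in strong peaks and −158 bp in weak peaks. It fell within 25 bp of the summit in 24 strong peaks (40%) and 34 weak peaks (29.3%).

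The sequence had a direction relative to the gene, and this was also found in promoters that had no such peak. AGAGACGCAG lay on the strand of the gene in 24 of 60 strong peaks (40%, 95% interval 27.6 to 53.5%), which did not depart detectably from an even split (exact binomial test, two-sided, p = 0.155). In the list of replicate 1 alone the share was 34% of 50 strong peaks (exact p = 0.0328). Over all 176 one-sided promoter peaks with a match it was 68 (38.6%, 31.4 to 46.3%, exact p = 0.00317), so that CTGCGTCTCT was the more common reading toward the gene. In one-sided promoters of autosomal genes with no such peak, AGAGACGCAG was on the strand of the gene in 140 of 433 (32.3%, exact p = 1.56e-13). The difference between the peaks and these promoters did not pass the test (odds ratio 1.32, Fisher's exact test, p = 0.157). The tests over all ranks and over promoters without a peak were added after the data had been seen.

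**Figure D4:**
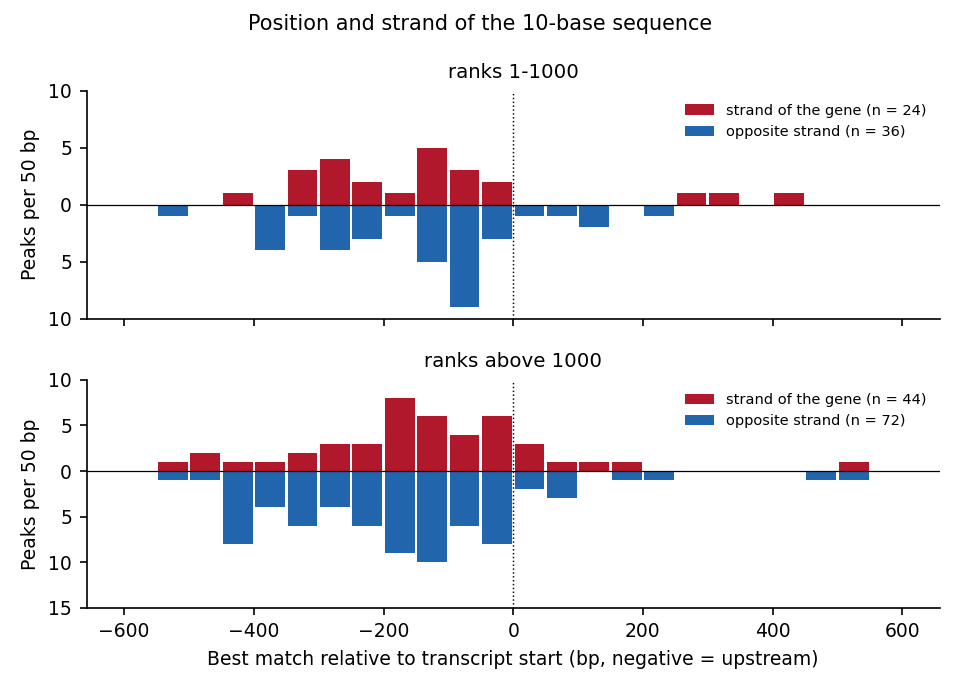
Number of peaks per 50 bp (vertical axes) against the position of the best match to the 10-base sequence relative to the transcript start (horizontal axis, bp, negative upstream), above the line for matches on the strand of the gene and below it for the opposite strand. The upper panel shows the 60 strong peaks with a match (24 and 36) and the lower panel the 116 weak ones (44 and 72).

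The strongest promoters with an exact match, after sec-61.G (rank 34), were those of nrfl-1, a PDZ scaffold protein of the cell cortex (rank 102), T28B8.1 (rank 107), ZK484.6 (rank 175), rpl-41.2, a ribosomal protein gene (rank 184), C09E9.1 (rank 203), hmg-1.2 (rank 225), Y18D10A.4 (rank 227), hrpk-1, an hnRNP K homologue (rank 264), and cdk-7, the kinase of transcription factor TFIIH (rank 276). The match was on the strand of the gene at nrfl-1, ZK484.6 and rpl-41.2, and on the other strand at the other 7. At nrfl-1 it lay 284.5 bp downstream of the start and at Y18D10A.4 114.5 bp downstream, with both summits in coding exons. For Y18D10A.4, hrpk-1 and cdk-7 there was a summit in the list of replicate 1 (ranks 52, 76 and 46) and none in that of replicate 2.

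One-sided promoter peaks stood between the other classes in strength. Strong peaks made up 252 of the 1590 (15.8%, 95% interval 14.1 to 17.7%). At autosomal head-to-head promoters they made up 144 of 548 (26.3%), and the odds ratio of one-sided over head-to-head was 0.528 (Fisher's exact test, adjusted over 3 pairs, p = 4.43e-07). Away from promoters they made up 380 of 3185 (11.9%, odds ratio 1.39, exact adjusted p = 3.01e-04). In the list of replicate 1 alone neither difference passed the test (odds ratios 0.769 and 1.26). At one-sided promoters on X they made up 87 of 409 (21.3%, odds ratio 0.697, exact adjusted p = 0.0119), a difference that was lost with other limits and in each replicate alone, and was 1.04 in the list of replicate 2.

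In sequence, strong one-sided promoter peaks held the GA repeat more often than strong head-to-head peaks and less often than strong peaks away from promoters, while no difference in the 10-base sequence passed the test. GAGAGA was in 42.9% of strong one-sided promoter peaks, against 35 of 144 head-to-head ones (24.3%, odds ratio 2.34, Fisher's exact test, adjusted over 3 pairs, p = 6.40e-04). Away from promoters it was in 212 of 380 (55.8%, odds ratio 0.594, exact adjusted p = 0.00232), and at one-sided promoters on X in 45 of 87 (51.7%, odds ratio 0.700, exact adjusted p = 0.17). These 3 tests were added after the data had been seen. The median GC content of strong windows was 43.5% in one-sided promoter peaks, 41.3% in head-to-head ones and 45.3% in both other classes, and its part in these differences was not tested.

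The 10-base sequence was in 23.8% of strong one-sided promoter peaks and in 21 of 144 head-to-head ones (14.6%, odds ratio 1.83, exact adjusted p = 0.0856). Without mismatch it was in 8.33% of both (odds ratio 1). It was in 112 of 380 away from promoters (29.5%, odds ratio 0.748, exact adjusted p = 0.183) and 19 of 87 on X (21.8%, odds ratio 1.12, exact adjusted p = 0.770). The small difference from X changed direction under 6 other settings, each replicate's own list included. The sequence was chosen in these other classes, which favours them in each pair. The odds ratio of strong over weak peaks, 3.29 in one-sided promoter peaks, was 2.00 times that at head-to-head promoters (95% interval 1.03 to 3.90). It was 0.687 times that of peaks away from promoters (0.446 to 1.06) and 0.698 times that on X (0.321 to 1.52). None of these 3 ratios passed a likelihood-ratio test after adjustment over the 3 pairs. The share in both replicate lists, 41.7%, did not differ detectably from 46.5%, 43.4% and 47.1% in the head-to-head, away and X classes (exact adjusted p = 0.599, 0.682 and 0.599).

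Among 19 gene lists by function, the ribosomal protein genes had the highest number with a strong peak. By share, the heterochronic list was higher (2 of 9 genes, 22.2%). Of 79 autosomal ribosomal protein genes, 17 (21.5%) had a one-sided promoter peak and 8 (10.1%) a strong one, where 8.14% and 1.4% of all autosomal protein-coding genes did. The 8 were rpl-3, rpl-32, rpl-41.2, rpl-35, rpl-23, rpl-6, rpl-18 and rpl-24.2, all of the large subunit. How many of the 79 are of the large subunit was not counted, so no preference is read from this. Behind rpl-3, the peak of rpl-32 lay 387 bp upstream (rank 109, with ranks 60 and 630 in replicates 1 and 2). That of rpl-35 lay 395 bp upstream (signal 10.98) and that of rpl-23 361 bp upstream (rank 293). Of the 8, only rpl-41.2 held the 10-base sequence, without mismatch and 321.5 bp upstream of its start. The lists were not tested, since they were drawn up with earlier results of these peaks known.

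Other lists held a few strong peaks each. Of 61 chaperone genes, 10 (16.4%) had a peak and 4 (6.56%) a strong one, at hsp-1, hsp-70, dnj-8 and hsp-4. Of 33 respiratory chain genes, 7 (21.2%) had a peak and 3 (9.09%) a strong one. These were cyc-2.1, a cytochrome c gene (71 bp upstream of an internal start, in an intron, rank 334), and the cytochrome c oxidase subunit genes cox-5A (294 bp upstream, rank 397) and cox-5B (53 bp upstream, rank 968). Cyc-2.1 had a summit in the list of replicate 1 only (rank 258) and cox-5B in that of replicate 2 only (rank 243). The initiation factor gene eif-3.B (rank 886), the proton pump gene vha-13 (rank 583), the SR splicing factor gene rsp-6 (rank 105), the Mediator gene sur-2 (rank 940) and the actin gene act-2 (rank 147) were the only ones of their lists with a strong peak. With peaks of any rank, these lists held 7 of 37 translation factor genes (18.9%), 3 of 17 vacuolar ATPase genes (17.6%), 4 of 44 splicing genes (9.09%), 1 of 24 Mediator genes (4.17%) and 7 of 28 actin and muscle genes (25%). No strong one-sided promoter peak was found at 33 proteasome, 10 tubulin and 13 SWI/SNF genes. Of these, 5 (15.2%), 3 (30%) and 1 (7.69%) had a weak one. Over all autosomal protein-coding genes the share with a strong one was 1.4%, so lists this short can hold none. Peaks at head-to-head promoters and away from promoters were not counted for any list.

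The histone list had 76 autosomal genes and a single peak, the strong one at his-37. Histone genes of the worm lie in repeated clusters, many of them head-to-head, and such promoters were left out by rule. The part of this in the count was not tested. The 201-base window of every strong peak, searched by its central 101 bases, was found once in the genome.

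Developmental regulators were more varied. Of 9 heterochronic genes, which set the timing of larval fates, 2 had a peak and both were strong. At lin-28, which encodes an RNA-binding protein that blocks the let-7 microRNA, the summit lay 475 bp upstream (rank 213, with ranks 381 and 298 in replicates 1 and 2). At din-1, which encodes a corepressor that acts with the nuclear receptor DAF-12, it lay 97 bp upstream of an internal start (rank 349), with rank 52 in replicate 2 and none in replicate 1. Of 246 nuclear hormone receptor genes, 28 (11.4%) had a peak and 5 (2.03%) a strong one, at nhr-49, a regulator of fat metabolism, nhr-50, nhr-207, nhr-161 and nhr-256. At nhr-49 the summit lay 429 bp upstream (rank 261), with rank 127 in replicate 2 and none in replicate 1. Of 17 genes of the Ras and MAP kinase pathway, with which EOR-1 acts, 3 (17.6%) had a peak and none was strong. Of 24 Wnt pathway genes, 3 (12.5%) had a peak and none was strong. With a strong share of 1.4% over all autosomal protein-coding genes, no scarcity is read from lists this short.

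Over all autosomal protein-coding genes, 8.14% had a one-sided promoter peak and 1.4% a strong one. The last 3 lists are given beside these shares, without a test. Of 161 genes in the cuticle list 9 (5.59%) had a peak and 2 (1.24%) a strong one. The 2 were dpy-30 and dpy-11, which the list took by name and which are not collagens. Of 106 neuropeptide genes 7 (6.60%) had a peak, and none was strong. Of 45 homeobox genes named ceh 3 (6.67%) had one, and none was strong.

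**Figure D5:**
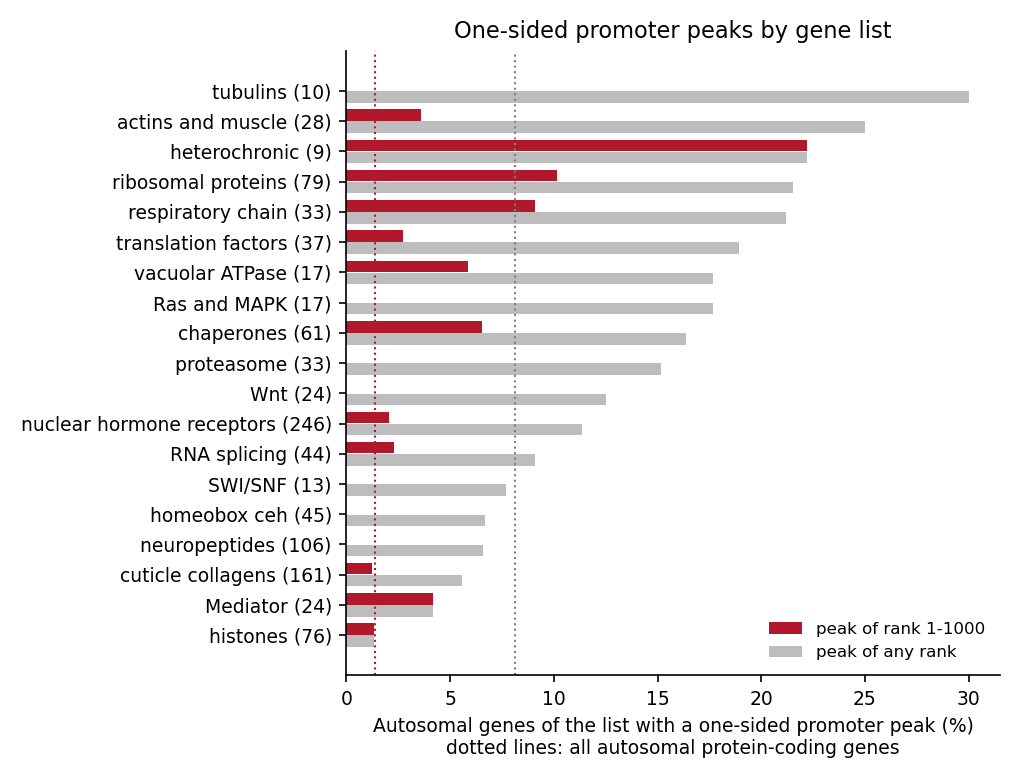
Share of the autosomal genes of each list (horizontal axis, %, with the number of genes in brackets) with a strong one-sided promoter peak (red bars) and with one of any rank (grey bars). Dotted lines mark all autosomal protein-coding genes (1.4% strong, 8.14% any rank), and ribosomal protein genes lie above both (10.1% and 21.5%).

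A few genes were assigned several strong peaks. Of the 241 genes with a strong peak, 10 had at least 2, and over all ranks 144 of the 1404 genes did. Besides tos-1, ints-4 and T28F4.5, these were tent-5 (ranks 45, 603 and 907, at 3 different starts of the gene), lgg-2, a homologue of the autophagy protein LC3 (ranks 101 and 507), mstr-1 (ranks 115 and 550), nurf-1, a subunit of the NURF chromatin remodeller (ranks 341 and 551), ntl-2, of the CCR4-NOT deadenylase complex (ranks 437 and 518), and the G protein alpha subunit genes egl-30 (ranks 243 and 363) and gsa-1 (ranks 486 and 904). Not all of these were separate in the replicate lists. As at tos-1, both ints-4 peaks had the same nearest summit in replicate 1 (rank 34). Both ntl-2 peaks had the same one in replicate 2 (rank 399) and none in replicate 1.

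Each replicate list, ranked on its own, gave a like number of one-sided promoter peaks. They were 599 of 2488 peaks (24.1%) in replicate 1 and 601 of 2610 (23.03%) in replicate 2. Among those ranked 1 to 1000, the 10-base sequence was in 50 of 252 in replicate 1 (19.8%) and 47 of 253 in replicate 2 (18.6%).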

How the data were processed

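The authors deposited narrowPeak lists on ce10 and ce11. Per the file headers and descriptions, 1 list came from each replicate, 1 from the pooled reads and 1 from thresholding by reproducibility between replicates. The score used is the deposited signal value of each peak, whose scale the sources used here do not state, so it served only to rank peaks within a list. The sources used here name no aligner or peak caller and give no read depth, and the controls and ce10 lists were not analysed.

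Summits were placed on WBcel235 with Ensembl 115 starts, and windows ran 100 bp to each side. Shares have exact (Clopper-Pearson) 95% intervals, which cover counting only. Fisher's exact and exact binomial tests were two-sided, with a threshold of 0.05 and Benjamini-Hochberg adjustment within each family (scipy 1.17.1, statsmodels 0.14.6, Python 3.11.15). Tests on made-up data covered the sequence search, with a word planted in random windows, and the classing of summits, on a toy annotation. Genes named are those of the 15 strongest peaks, of thresholded peaks, of the 10 strongest with an exact match, of up to 3 per gene list and of peaks beside the distance limit. Further genes are named where short counts are listed. The peaks, gene lists and tests were chosen with earlier results of these data known. Alternatives varied the distance, pair rule, number of strong peaks, window, mismatches, sequence and replicates.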

Additional observations from a re-analysis of the deposited data

How the results depend on the processing

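Across 13 results, 86 of 106 recomputed values kept their direction and their side of the threshold. The higher share of the 10-base sequence in strong peaks did so in all 15 alternatives run (odds ratio 2.18 to 4.41), and the higher upstream share in all 10 (1.46 to 3.93). The GA repeat had an odds ratio of 1.50 in peaks of low GC content, an alternative chosen after seeing the data, and 1.38 to 1.99 when each replicate's list stood alone. The replicate lists are shorter than the pooled one, so fewer low ranks count as weak in them. The share of strong peaks, one-sided over X, was 0.741 with a limit of 250 bp, 0.702 with the 500 strongest peaks and 0.801 with the 2000 strongest, and did not pass in these. With each replicate's list alone it was 0.847 to 1.04, one-sided over head-to-head was 0.670 to 0.769, and one-sided over away was 1.26 to 1.38. The share of matches on the strand of the gene was 34% to 42.6% with each replicate's list alone. Some differences that passed no test changed direction, again without passing. The match odds, one-sided over X, were 0.997 with head-to-head starts taken within 1000 bp of each other, 0.960 with the 2000 strongest peaks, 0.828 with windows of 50 bp to each side, 0.898 without mismatch and 0.945 to 0.976 with each replicate's list alone. The match odds, one-sided over head-to-head, ranged from 1 without mismatch, where no direction was left, to 2.21. The odds of being in both lists, with the 500 strongest, were 1.285 for one-sided over head-to-head and 1.32 for one-sided over X, and with the 2000 strongest 1.07 for one-sided over away. The cause of these changes was not tested. No paired analysis was possible because there was 1 group. The number of peaks limits precision, above all in the 23 of ranks 1 to 100, and read depth is unknown.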
